A study of Mus musculus with 8 samples.

Results

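The 40 genes described here serve the cell cycle. A list of 20 names genes of DNA replication, which are expressed around S phase, and a list of 20 names genes of mitosis, which are expressed in G2 and M phase. They were taken by name from 23091 genes listed in the tables. No value entered the rule, but the lists were chosen with earlier results of these data known. Each gene was summed over the wells of a library, over all wells and over classes of wells. The cells were from mice of the strain C57BL/6N, wild type and untreated, taken at embryonic day 9.5 from the extraembryonic yolk sac. A1 and A2 cells are the label of 4 libraries, called A1/A2 libraries here, and EMP cells, erythromyeloid progenitors, that of 4 others. EMP cells are known to give rise to A1 cells, which still carry some Kit, and these to A2 cells, the Cx3cr1-positive precursors of tissue macrophages. A1 and A2 cells share libraries, and the labels do not tell which well holds which. Per the labels' protocols, cells stained for CD45 and CD11b were sorted as CD45-positive into plates of 384 wells.

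Of 1536 wells, 811 held at least 5000 transcripts and were kept, 306 of 768 from A1/A2 libraries and 505 of 768 from EMP libraries. Kept transcripts per library ranged from 2440397 to 3415772 in the A1/A2 libraries and from 3798203 to 5326589 in the EMP libraries. The sorts were not pure by their transcripts. Macrophage markers, summed over 10 genes, held 8.79 to 11.9 transcripts per 10000 in the A1/A2 libraries and 0.643 to 1.12 in the EMP libraries, while markers of yolk sac endoderm, also 10 genes, held 82.8 to 149 and 147 to 224. All 10 endoderm markers were found in every library of both sorts, and of the macrophage markers only Adgre1, which encodes F4/80, was at 0 in an EMP library. Erythroid markers, summed over 8 genes, held 6.64 to 75.6 transcripts per 10000 in the A1/A2 libraries and 23.1 to 69.3 in the EMP libraries. All 8 libraries carry the same batch label. The labels do not say whether libraries came from separate litters, so p-values measure the spread between libraries only.

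Wells were split by the genes that mark these cells. Wells with more than 2 times the mean level of Apoa1, an apolipoprotein gene of yolk sac endoderm, were called Apoa1-high (above 39.2 transcripts per 10000). The other wells were put in a class if exactly 1 of Cx3cr1 (the fractalkine receptor of macrophage precursors), Kit (the stem cell factor receptor) and Cdh5 (an adhesion molecule of endothelium) was found in them. The A1/A2 libraries gave 105 Cx3cr1, 19 Kit, 2 Cdh5 and 36 Apoa1-high wells, and the EMP libraries 5 Cx3cr1, 132 Kit, 22 Cdh5 and 124 Apoa1-high wells. Several of these genes were found in 47 wells of the A1/A2 libraries and 96 of the EMP libraries, and the remaining wells held none of them. Classes differed in depth: the median well held 43350 transcripts in the Cx3cr1 class of the A1/A2 libraries, 26536 in the Kit class of the EMP libraries, and 53729 and 40065 in the Apoa1-high classes of the A1/A2 and EMP libraries. Among wells with a Cdh5 transcript, 93 of 127 also held a Kit transcript, and 53 of 160 Apoa1-high wells held a Kit, Cx3cr1 or Cdh5 transcript.

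A dividing cell copies its DNA in S phase and parts the copies in M phase. Before S phase, Cdc6 and Cdt1 load the ring-shaped helicase made of Mcm2 to Mcm7 onto DNA. Cdc45 and the GINS complex activate it, and Prim1 (primase), Pcna (the sliding clamp), Fen1 and Lig1 (flap endonuclease and ligase) make and join the new strands. In mitosis, Cdk1 with its cyclins Ccnb1 and Ccnb2 drives entry, Bub1 guards chromosome attachment, and Cdc20 and Ube2c serve the ubiquitin ligase that ends it. Genes of S phase are known targets of E2F factors, and genes of G2 and M phase carry CHR elements and CCAAT boxes, where the MuvB complexes and NF-Y bind. Yolk sac progenitors are known to divide fast.

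These promoter elements differ between the lists in the annotated sequences, and 4 promoters of genes that differed between the sorts are shown for that reason. Each is the RefSeq promoter of GRCm38.p6, from 250 bases before to 50 bases after the start of the gene, 5′ to 3′ on the gene's strand. Capitals mark every match to E2F letters (TTTGGCGC, TTTCGCGC, TTTGGCGG, TTTCCCGC), CHR letters (TTTGAA or TTCGAA) or the CCAAT box, on either strand. Mcm5 (chr8:75109259-75109558, plus strand) and Mcm3 (chr1:20820263-20820562, minus strand) encode subunits of the replicative helicase. Ccnb2 (chr9:70421505-70421804, minus strand) encodes a mitotic cyclin and Cdk1 (chr10:69352863-69353162, minus strand) its kinase.
Mcm5: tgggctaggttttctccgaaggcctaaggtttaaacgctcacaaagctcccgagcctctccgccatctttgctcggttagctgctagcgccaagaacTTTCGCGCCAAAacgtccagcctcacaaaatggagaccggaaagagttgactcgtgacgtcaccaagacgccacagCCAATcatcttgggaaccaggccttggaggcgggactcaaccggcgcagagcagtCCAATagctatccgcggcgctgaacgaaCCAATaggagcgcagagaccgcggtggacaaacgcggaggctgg
Mcm3: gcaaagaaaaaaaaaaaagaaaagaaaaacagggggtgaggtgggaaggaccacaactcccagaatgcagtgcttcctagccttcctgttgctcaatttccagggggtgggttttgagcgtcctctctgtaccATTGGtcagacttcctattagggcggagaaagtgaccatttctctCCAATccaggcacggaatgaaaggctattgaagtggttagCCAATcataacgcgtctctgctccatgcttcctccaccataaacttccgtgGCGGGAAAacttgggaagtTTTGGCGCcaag
Ccnb2: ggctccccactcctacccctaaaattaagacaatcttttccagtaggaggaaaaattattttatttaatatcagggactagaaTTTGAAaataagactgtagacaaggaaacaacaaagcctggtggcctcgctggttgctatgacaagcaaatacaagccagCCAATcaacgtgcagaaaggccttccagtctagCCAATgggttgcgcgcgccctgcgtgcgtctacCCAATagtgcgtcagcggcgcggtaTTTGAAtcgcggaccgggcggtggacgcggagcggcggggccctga
Cdk1: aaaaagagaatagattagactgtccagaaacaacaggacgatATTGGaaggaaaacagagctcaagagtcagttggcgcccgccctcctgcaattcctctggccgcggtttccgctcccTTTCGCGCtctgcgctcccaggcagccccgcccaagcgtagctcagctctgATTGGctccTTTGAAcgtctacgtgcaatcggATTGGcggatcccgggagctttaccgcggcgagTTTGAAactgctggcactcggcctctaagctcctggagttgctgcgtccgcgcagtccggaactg

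With the start of the gene at position 1, the Mcm5 promoter had overlapping E2F matches from positions -153 and -149 and CCAAT boxes from -77, -22 and 7. Mcm3 had E2F matches from positions 20 and 39 and CCAAT boxes from -117, -72 and -32. Ccnb2 had CHR matches from positions -167 and 5 and CCAAT boxes from -87, -54 and -21, and no E2F match. Cdk1 had CHR matches from positions -71 and -15, an E2F match from -131 and CCAAT boxes from -208, -80 and -48. Motif and direction did not go together in all called genes. The promoter of Pcna, which rose, had a CCAAT box from -87 and no E2F match. That of Bub1, a G2/M gene that also rose, had a CHR match from 15 and CCAAT boxes from -68 and -42. Mcm7, which fell, had both E2F and CHR letters in a listed promoter. Fen1, which rose, had CHR letters and no E2F match, and Ccnb1, which fell, had no CHR match. Cdc6, which rose, had an E2F match. RefSeq promoters were matched by symbol for 17 of 20 genes in each list. A gene counted as holding a motif if any of its listed promoters held it. E2F letters were in 7 of 17 S genes (41.2%), 1 of 17 G2/M genes (5.88%) and 2.70% of all 27025 genes of the table. CHR letters were in 4 S genes (23.5%), 13 G2/M genes (76.5%) and 21.7% of all genes, and CCAAT boxes in 11 (64.7%), 15 (88.2%) and 41.1%. A match is a description of the letters and not a binding site.

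Summed over the 20 genes, S transcripts were most abundant in the Cx3cr1 wells of the A1/A2 libraries, the Kit wells of the EMP libraries and the wells with several class genes. S genes held 28.0, 27.5, 25.4 and 28.5 transcripts per 10000 in the Cx3cr1 wells of A1/A2 libraries 1 to 4, a mean of 27.3 ± 1.37 (SD, n = 4). They averaged 18.0 ± 3.27 in the Kit wells of the A1/A2 libraries, of which there were only 3 to 6 a library, and 25.6 ± 2.60 in the Kit wells of the EMP libraries. Wells with several class genes averaged 26.5 ± 1.43 in the A1/A2 and 24.1 ± 2.85 in the EMP libraries. The Cdh5 wells of the EMP libraries averaged 18.3 ± 0.942, and the Apoa1-high wells 17.0 ± 3.77 in the A1/A2 and 17.3 ± 0.331 in the EMP libraries. Wells with none of these genes averaged 16.1 ± 3.33 in the A1/A2 and 15.6 ± 1.44 in the EMP libraries, at median totals of only 9874 and 16788 transcripts. Erythroid markers in these wells ranged over libraries from 3.12 to 322 and from 5.50 to 340 transcripts per 10000.

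**Figure D1:**
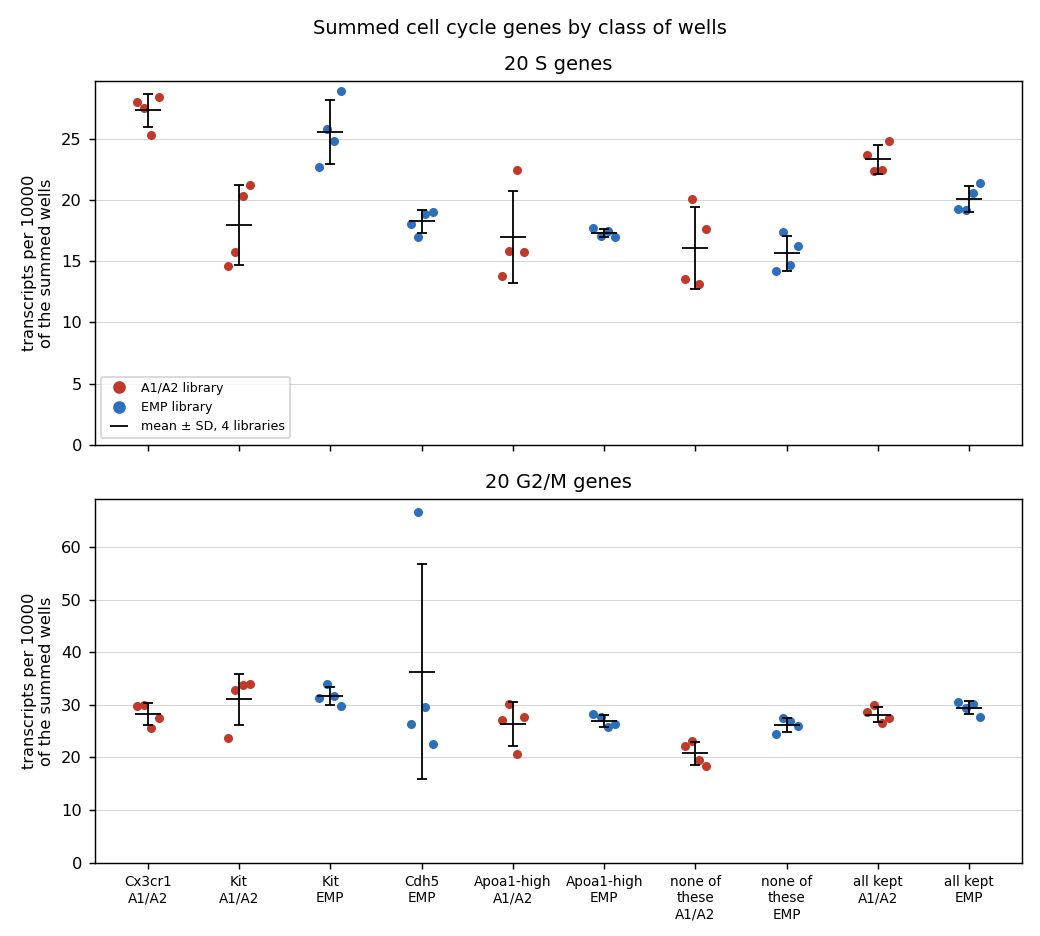
Transcripts of the 20 S genes (top) and the 20 G2/M genes (bottom) per 10000 transcripts, summed over the wells of each class and library; points are libraries (red, A1/A2; blue, EMP) and bars are mean ± SD of 4 libraries. S sums average 27.3 in Cx3cr1 wells and 25.6 in the Kit wells of the EMP libraries, against 17.0 and 17.3 in Apoa1-high wells of the A1/A2 and EMP libraries, and the Cdh5 wells of EMP library 2 stand out in G2/M sums at 66.6.

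G2/M genes averaged 28.2 ± 2.05 transcripts per 10000 in Cx3cr1 wells, 31.0 ± 4.89 in the Kit wells of the A1/A2 libraries, 31.7 ± 1.70 in the Kit wells of the EMP libraries, and 26.4 ± 4.10 and 27.0 ± 1.12 in the Apoa1-high wells of the A1/A2 and EMP libraries. These 5 ranges over libraries overlapped in part. Cdh5 wells of the EMP libraries averaged 36.3 ± 20.4, but library 2, with 3 such wells, stood at 66.6 and the others at 22.6 to 29.6. Wells with several class genes averaged 32.8 ± 3.3 in the A1/A2 and 34.6 ± 4.66 in the EMP libraries, and wells with none 20.8 ± 2.18 and 26.1 ± 1.33. Every class of wells held transcripts of both lists, the Apoa1-high wells included. Thinned to 5000 transcripts each, 5 of 306 A1/A2 wells and 1 of 505 EMP wells had no S transcript, and 0 and 1 had no G2/M transcript.

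Over all kept wells, several replication genes were higher and the mitotic cyclin B genes and Cdk1 were lower in the A1/A2 libraries than in the EMP libraries. Of the 20 S genes, 5 rose and 1 fell, and of the 20 G2/M genes 1 rose and 3 fell (edgeR's quasi-likelihood test, Benjamini-Hochberg adjusted p under 0.05 over 11087 genes). Across all genes tested, 33.2% were called, 17.3% higher and 15.9% lower. In this fit, which does not pair libraries by their number, the counts of both lists, 6 and 4 of 20, lay near or below that share. With a block on library number, a larger share of the S genes than of all genes was called. The labels do not state whether the numbers pair libraries. The median log2 fold change was 0.25 for S genes, -0.04 for G2/M genes and -0.02 for all genes. Between the library sums, 8 of 20 S genes were higher in all A1/A2 than in all EMP libraries and 1 was lower, against 1 and 3 G2/M genes. Of 9888 genes, 18.6% were higher and 13.6% lower in this way, 32.2% in either direction.

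Pcna, the sliding clamp of the replication fork, held 1.61, 0.999, 1.55 and 2.12 transcripts per 10000 in A1/A2 libraries 1 to 4, against 0.694, 0.571, 0.863 and 0.946 in EMP libraries 1 to 4. All A1/A2 libraries lay above all EMP libraries. Its log2 fold change was 1.01 ± 0.22 (SE; edgeR adjusted p = 0.00635). Mcm5 held 1.58, 1.30, 1.48 and 1.47 against 1.02, 0.972, 1.02 and 1.11 per 10000, also without overlap (0.47 ± 0.09 on the log2 scale; adjusted p = 0.00232). Mcm3, its neighbour in the helicase ring, held 1.59, 1.37, 1.33 and 1.63 in A1/A2 libraries, against 1.0, 0.847, 1.04 and 1.26 in EMP libraries, and rose by 0.48 ± 0.11 (adjusted p = 0.00773). Fen1 had the steepest fold and was scarce: it held 0.107, 0.0761, 0.209 and 0.257 against 0.0418, 0.0244, 0.0380 and 0.050 per 10000 (log2 fold change 2.06 ± 0.39; adjusted p = 0.00268). Its 4 A1/A2 libraries, though all above the EMP libraries, lay far apart among themselves.

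Cdc6, a loader of the helicase, averaged 0.411 ± 0.0885 transcripts per 10000 in A1/A2 and 0.287 ± 0.0499 in EMP libraries (0.50 ± 0.16 on the log2 scale; edgeR adjusted p = 0.0351). Mcm7 went the other way from Mcm3 and Mcm5: it held 2.00, 2.01, 1.86 and 2.09 in A1/A2 libraries, against 2.30, 2.36, 2.40 and 2.37 in EMP libraries, with no overlap and a log2 fold change of -0.28 ± 0.08 (adjusted p = 0.0161). The other 3 helicase subunits did not pass, with log2 fold changes of 0.26 ± 0.10 for Mcm6 (adjusted p = 0.0587), 0.25 ± 0.09 for Mcm4 (0.0516) and 0.02 ± 0.09 for Mcm2 (0.896). Neither did the enzymes of nucleotide supply. Rrm1 and Rrm2, the subunits of ribonucleotide reductase, stood at 0.25 ± 0.10 and 0.16 ± 0.11, and Tyms, thymidylate synthase, at 0.29 ± 0.12. Slbp, which binds histone mRNA, stood at 0.20 ± 0.09, and the cyclins Ccne1 and Ccne2, partners of Cdk2 at the start of S phase, at -0.16 ± 0.11 and 0.31 ± 0.14. The 5 S genes not yet named ran from -0.18 ± 0.11 (Prim1) to 0.35 ± 0.16 (Cdc45), with Cdt1, Lig1 and Gins2 between.

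**Figure D2:**
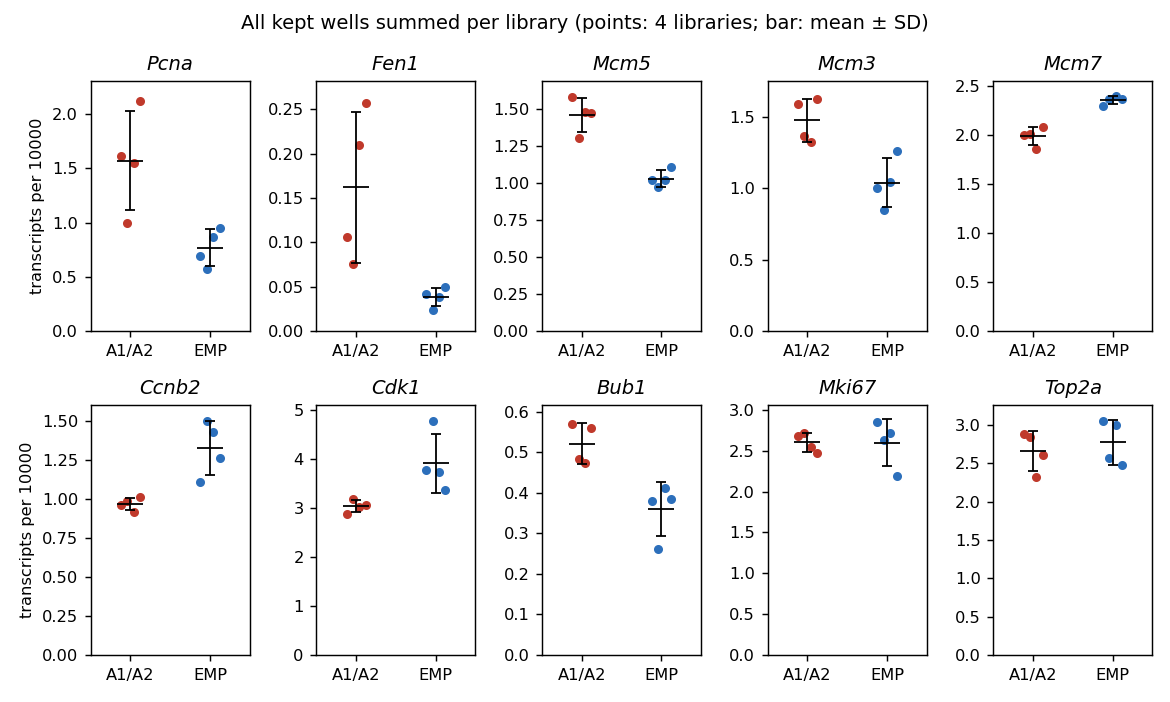
Transcripts per 10000 of 10 genes in all kept wells of each library; points are libraries (red, A1/A2; blue, EMP) and bars are mean ± SD of 4 libraries. Pcna, Fen1, Mcm5, Mcm3 and Bub1 lie higher and Mcm7, Ccnb2 and Cdk1 lower in every A1/A2 library than in every EMP library, while Mki67 and Top2a overlap.

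Of the mitotic genes, Ccnb2 held 0.960, 0.985, 0.915 and 1.01 transcripts per 10000 in A1/A2 libraries 1 to 4, against 1.11, 1.5, 1.42 and 1.26 in EMP libraries 1 to 4. Its groups did not overlap, and it fell by 0.49 ± 0.11 on the log2 scale (edgeR adjusted p = 0.00552). Cdk1 held 2.88, 3.18, 3.02 and 3.05 against 3.77, 4.77, 3.74 and 3.36, again without overlap (-0.40 ± 0.12; adjusted p = 0.0192). Ccnb1 held 1.46, 1.58, 1.36 and 1.42 against 1.82, 1.78, 1.73 and 1.59 (-0.28 ± 0.09; adjusted p = 0.0290). Bub1, the checkpoint kinase, moved in the opposite direction, with 0.570, 0.483, 0.472 and 0.560 in A1/A2 libraries, against 0.380, 0.261, 0.412 and 0.385 in EMP libraries (0.51 ± 0.14; adjusted p = 0.0165).

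The other 16 G2/M genes did not pass. Mki67, the gene of the proliferation antigen Ki-67, averaged 2.60 ± 0.112 transcripts per 10000 in A1/A2 and 2.60 ± 0.285 in EMP libraries, and Top2a, the topoisomerase that untangles sister chromatids, 2.67 ± 0.261 and 2.78 ± 0.296. Their log2 fold changes were -0.03 ± 0.10 and -0.09 ± 0.10. Plk1, the polo kinase, stood at -0.19 ± 0.10, Cdc20 at 0.00 ± 0.11, Aurka, the spindle pole kinase, at -0.04 ± 0.12 and Aurkb, the kinase of the chromosomal passenger complex, at 0.30 ± 0.13 (adjusted p = 0.0997). The rest, among them Ccna2, Birc5, Tpx2, Hmmr, Nusap1, Ube2c, the kinetochore genes Cenpe and Cenpf and the motors Kif11 and Kif23, ran from -0.19 (Cenpf) to 0.09 (Tpx2).

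**Figure D3:**
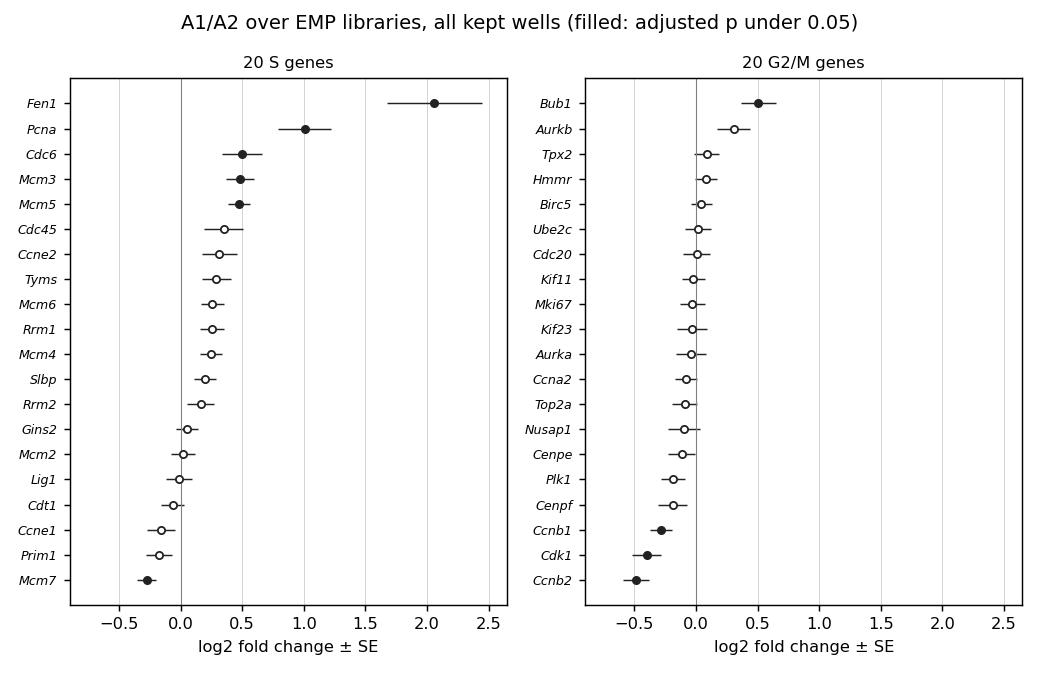
Log2 fold change ± SE of each S gene (left) and G2/M gene (right), A1/A2 over EMP libraries, all kept wells; filled points have an edgeR adjusted p under 0.05. Fen1 (2.06) and Pcna (1.01) lead the S genes and Mcm7 (-0.28) is last, while Bub1 (0.51) leads the G2/M genes and Ccnb2 (-0.49) is last.

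Sums weight deep wells, and with each well thinned to 5000 transcripts only Pcna (0.63 ± 0.19; edgeR adjusted p = 0.0218), Mcm7 (-0.43 ± 0.14; 0.0324) and Ccnb2 (-0.58 ± 0.17; 0.0176) were called. Mcm5 was then at 0.33 ± 0.17 (adjusted p = 0.234) and Mcm3 at -0.04 ± 0.18 (0.925). Of the 39 members still tested, 9 had the opposite sign, among them Rrm1 (-0.10 ± 0.17) and Cdc45 (-0.18 ± 0.28). Fen1 was not tested, and the median well held 9 S transcripts in both groups of libraries and 12 and 14 G2/M transcripts in the A1/A2 and EMP libraries. For the 185 and 329 wells with at least 20000 transcripts, thinned to 20000, the S medians were 49 and 40. Their G2/M medians were 56 and 54, and no test was made on wells. The calls of Pcna, Fen1, Mcm5, Mcm3 and Ccnb2 held without any 1 library. That of Mcm7 was lost without A1/A2 library 3 (-0.25; adjusted p = 0.0562), that of Bub1 without A1/A2 library 4 (0.47; 0.0516), and that of Cdk1 without A1/A2 library 1 or 4 (-0.38 and -0.40; 0.0559 and 0.0523). Cdc6 was lost without A1/A2 library 2 or 4 or EMP library 1 or 2 (highest adjusted p = 0.122), and Ccnb1 without any of 6 libraries, all but A1/A2 library 2 and EMP library 4 (highest 0.0886). Conversely, Mcm4 and Aurkb were called without A1/A2 library 2, Tyms without EMP library 1, Rrm2 without EMP library 2, and Cdc45 and Mcm6 without EMP library 4 (adjusted p from 0.0180 for Cdc45 to 0.0480 for Aurkb).

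In bulk sums of this kind, fewer cells of a type and less RNA per cell cannot be told apart, so the same genes were compared within classes. In Apoa1-high wells, A1/A2 against EMP libraries, edgeR called 0 of the 19 S and 0 of the 20 G2/M genes tested, where 3.01% of 7036 genes were called. At an unadjusted p under 0.05 there were 5 S genes, 3 higher and 2 lower, and 3 G2/M genes, 2 higher and 1 lower. The share of all genes at that threshold is not given here, so these counts are not read against it. DESeq2 also called 0 and 0. Pcna had the lowest p of the S genes. It held 0.762, 0.716, 1.54 and 1.22 transcripts per 10000 in the Apoa1-high wells of A1/A2 libraries, against 0.711, 0.519, 0.723 and 0.695 in those of EMP libraries (0.73 ± 0.21; adjusted p = 0.0631). Only A1/A2 library 2 fell into the EMP range, and without it Pcna (1.02; adjusted p = 0.00136), Rrm1 (0.74; 0.0212) and Aurka (-0.90; 0.0271) were called. Rrm1 stood at 0.53 ± 0.19 (adjusted p = 0.127), Cdt1 at -0.47 ± 0.19 (0.200), Mcm7 at -0.30 ± 0.14 (0.272) and Cdk1 at -0.35 ± 0.13 (0.179). The smallest Apoa1-high sums came from 7 wells, in A1/A2 libraries 1, 3 and 4.

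The Cx3cr1 wells of the A1/A2 libraries were next set against the Kit wells of the EMP libraries. Of the S genes 3 rose and 1 fell, and of the G2/M genes 1 rose and 3 fell, 4 of 20 each, where 21.7% of 8807 genes were called, 12.5% higher and 9.23% lower. Pcna held 1.90, 1.30, 1.95 and 2.47 transcripts per 10000 in Cx3cr1 wells, against 0.791, 0.652, 1.08 and 1.43 in Kit wells (0.95 ± 0.25; edgeR adjusted p = 0.0259). The highest Kit library overlapped the lowest Cx3cr1 library. Fen1 rose by 1.70 ± 0.52 (adjusted p = 0.0317) and Cdc45, which activates the helicase, by 0.58 ± 0.19 (0.0337). Mcm7 fell by 0.32 ± 0.10 (adjusted p = 0.0312). For the helicase genes Mcm2, Mcm4 and Mcm6, log2 fold changes were -0.07 ± 0.12, 0.03 ± 0.12 and 0.16 ± 0.13, and Mcm5 was at 0.33 ± 0.13 (adjusted p = 0.0674).

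Ccnb2 had the lowest p of the members there: it held 0.960, 0.942, 0.913 and 1.12 transcripts per 10000 in Cx3cr1 wells, against 1.29, 1.93, 1.68 and 1.44 in Kit wells, with no overlap (-0.67 ± 0.13; edgeR adjusted p = 0.00115). Cdk1 fell by 0.43 ± 0.11 (adjusted p = 0.0111) and Ccnb1 by 0.36 ± 0.12 (0.0339). Bub1 held 0.663, 0.520, 0.573 and 0.665 against 0.388, 0.350, 0.439 and 0.367 and rose by 0.64 ± 0.16 (adjusted p = 0.00735). Mki67 differed by 0.01 ± 0.10 and Top2a by -0.35 ± 0.14 (adjusted p = 0.0799). Among these genes Ccnb2, Cdk1 and Bub1 held their calls without any 1 library, whereas Pcna and Mcm7 lost theirs without any of 5 of the 8 libraries, Cdc45 without any of 6, Fen1 without any of 4 of 7 and Ccnb1 without any of 5 (highest adjusted p 0.0723, 0.108, 0.0924, 0.0879 and 0.102). Conversely, Mcm3 and Mcm5 were called without EMP library 4 (0.47 and 0.45; adjusted p = 0.00794 and 0.00787), and Top2a without A1/A2 library 1 or 2. With each well thinned to 5000 transcripts, 0 of 13 S and 0 of 15 G2/M genes were called, Pcna at 0.55 and Ccnb2 at -0.89 (edgeR adjusted p = 0.292 and 0.110). Of these 28 genes 8 had the opposite sign, Mcm3 at -0.20 ± 0.25. The thinned fits set the classes anew from the thinned counts, so wells could change class.

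Within the A1/A2 libraries, most replication genes were higher in Cx3cr1 wells than in Apoa1-high wells of the same library. Of the 20 S genes 13 rose and 0 fell (edgeR with library as a block), where 39.8% of 8236 genes were called, 19.1% higher and 20.7% lower. The median log2 fold change was 0.57 for S genes and 0.04 for all genes. Mcm3 held 1.97, 1.93, 1.56 and 1.93 transcripts per 10000 in the Cx3cr1 wells of libraries 1 to 4, against 0.476, 0.622, 1.01 and 0.622 in their Apoa1-high wells (1.28 ± 0.18; adjusted p = 1.57e-06). The classes did not overlap. Mcm6 held 2.58, 2.32, 2.21 and 2.01 against 1.24, 1.14, 1.52 and 0.808 (0.86 ± 0.16; adjusted p = 6.27e-05), and Mcm5 1.83, 1.72, 1.70 and 1.84 against 1.14, 0.851, 1.01 and 0.787 (0.85 ± 0.16; 0.000106). Slbp rose by 0.91 ± 0.18 (adjusted p = 0.000146), Cdt1 by 0.88 ± 0.19, Cdc6 by 1.08 ± 0.27 and Pcna by 0.70 ± 0.16. Mcm4, Cdc45, Prim1, Lig1, Mcm2 and Rrm2 rose by 0.49 to 0.78.

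The 7 S genes that did not pass there were Rrm1 (0.39 ± 0.17; edgeR adjusted p = 0.0641), Mcm7 (0.25 ± 0.15), Tyms (0.18 ± 0.20), Fen1 (0.46 ± 0.40), Ccne2 (0.24 ± 0.21), Gins2 (-0.25 ± 0.17) and Ccne1 (-0.34 ± 0.20). Of the 20 G2/M genes only Tpx2, a spindle assembly factor, rose (0.56 ± 0.19; adjusted p = 0.0175) and only Hmmr, a spindle protein and hyaluronan receptor, fell (-0.42 ± 0.16; 0.0386). Their median was -0.02. Mki67 stood at 0.10 ± 0.15, Top2a at 0.11 ± 0.16, Cdk1 at -0.16 ± 0.14 and Ccnb1 at -0.01 ± 0.17. Calls were lost without A1/A2 library 2 for Mcm2, Cdc45, Prim1, Lig1, Rrm2 and Hmmr, without library 4 for Mcm4, Cdc45, Prim1, Lig1, Rrm2, Tpx2 and Hmmr, without library 1 for Rrm2 and Hmmr, and without library 3 for Tpx2 (highest adjusted p = 0.284, for Hmmr). Conversely, Rrm1 was called without library 1 or 3, Aurka without library 2, Aurkb without library 4, and Cdc20, Cenpf and Kif11, the last 3 lower, without library 3. With each well thinned to 5000 transcripts and classed anew, only 4 S genes were still tested and 0 were called. Mcm5 was at 0.69 ± 0.34, Mcm6 at 0.75 ± 0.35, Mcm7 at 0.63 ± 0.30 and Rrm2 at 0.01 ± 0.27 (adjusted p = 0.127, 0.104, 0.117 and 0.980).

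Within the EMP libraries, most replication genes tested were higher in Kit wells than in Apoa1-high wells of the same library. Of the 19 S genes tested 15 rose and 1 fell, where 53% of 8624 genes were called, 26.4% higher and 26.6% lower. The medians were 0.53 for S genes and 0.04 for all genes. Mcm3 held 1.22, 1.52, 1.28 and 2.14 transcripts per 10000 in Kit wells of EMP libraries 1 to 4, against 0.751, 0.612, 0.559 and 0.777 in their Apoa1-high wells (1.10 ± 0.13; edgeR adjusted p = 2.20e-06). Mcm4 held 1.38, 1.55, 1.41 and 1.61 against 0.603, 0.694, 0.873 and 0.908 (0.86 ± 0.12; adjusted p = 1.29e-05). Rrm1 held 1.37, 1.67, 1.49 and 1.67 against 0.952, 0.715, 0.805 and 0.695 (0.90 ± 0.12; 1.47e-05). None of these 3 genes overlapped between the classes. Mcm6 rose by 0.76 ± 0.11, Mcm5 by 0.84 ± 0.13, Slbp by 0.69 ± 0.11, Mcm2 by 0.51 ± 0.11 and Pcna by 0.46 ± 0.15, and Cdc6, Cdt1, Prim1, Lig1, Tyms, Mcm7 and Rrm2 by 0.21 to 0.92.

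Ccne1 was the only S gene that fell. It held 0.576, 0.338, 0.534 and 0.493 transcripts per 10000 in Kit wells, against 1.09, 0.781, 0.723 and 0.714 in Apoa1-high wells (-0.87 ± 0.15; edgeR adjusted p = 0.000159), without overlap. Gins2, Ccne2 and Cdc45 did not pass (-0.16, -0.21 and 0.13). Of the G2/M genes 5 rose: Aurkb (1.15 ± 0.18; adjusted p = 4.21e-05), Top2a (0.69 ± 0.12; 0.000272), Tpx2 (0.58 ± 0.12; 0.000594), Nusap1 (0.62 ± 0.20; 0.0135) and Ccnb2 (0.34 ± 0.10; 0.00869). Aurkb held 0.638, 0.531, 0.486 and 0.661 against 0.255, 0.223, 0.273 and 0.232 per 10000. Hmmr fell by 0.42 ± 0.11 (adjusted p = 0.00469). These 6 of 20 genes are a smaller share than the 53% of all genes called, and the list's median was 0.11. Mki67 stood at 0.11 ± 0.09, Plk1 at 0.20 ± 0.12, Cdc20 at 0.10 ± 0.13, Aurka at 0.04 ± 0.13, Cdk1 at -0.10 ± 0.07 and Ccnb1 at 0.05 ± 0.10.

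**Figure D4:**
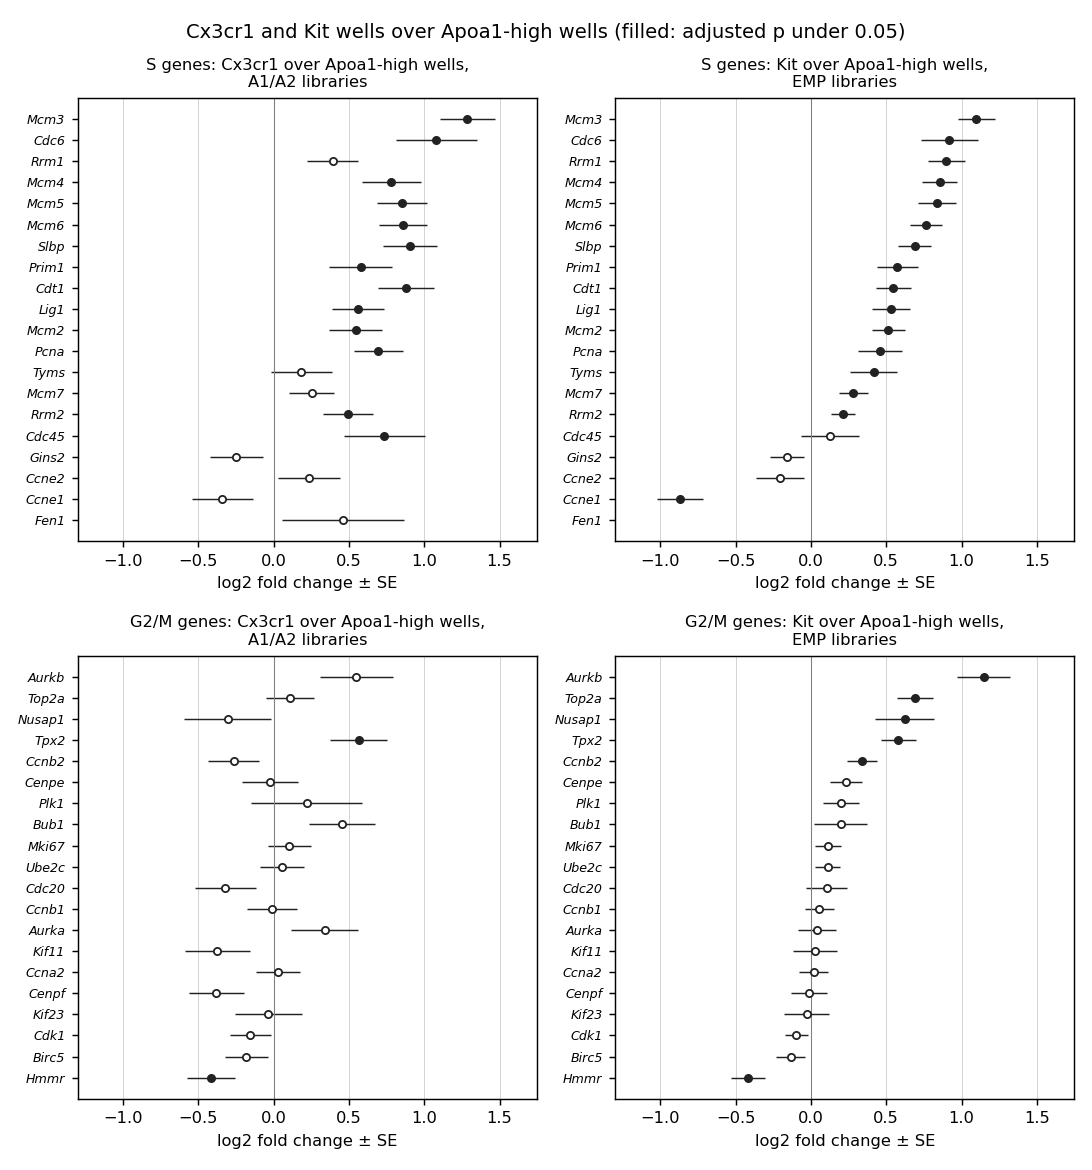
Log2 fold change ± SE of S genes (top) and G2/M genes (bottom), Cx3cr1 over Apoa1-high wells in A1/A2 libraries (left) and Kit over Apoa1-high wells in EMP libraries (right); filled points have an edgeR adjusted p under 0.05, and Fen1 was not tested in the EMP libraries. Mcm3 stands at 1.28 and 1.10 and Ccne1 at -0.34 and -0.87, while the medians of the G2/M genes are -0.02 and 0.11.

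In the EMP libraries, calls were lost without library 4 for Pcna (0.25; adjusted p = 0.177), Mcm7, Tyms and Rrm2, without library 3 for Pcna, Mcm7, Tyms, Rrm2 and Nusap1, without library 2 for Tyms, Rrm2, Ccnb2 and Nusap1, and without library 1 for Rrm2 (highest adjusted p = 0.254, for Tyms). With each well thinned to 5000 transcripts and classed anew, 8 of 12 S genes and 2 of 15 G2/M genes still tested were called. The share of all genes called when thinned is not given here, so these counts are not read against it. Endoderm markers were also found outside the Apoa1-high wells: their sum was 48.4 to 97.8 transcripts per 10000 in Cx3cr1 wells against 280 to 318 in the Apoa1-high wells of the A1/A2 libraries, and 60.2 to 115 in Kit wells against 273 to 296 in the Apoa1-high wells of the EMP libraries. All 10 endoderm markers were found in each of these sums. Apoa1, which set the Apoa1-high class, is among them, so part of this contrast follows from the rule. The part of endoderm transcripts in the differences of the S and G2/M genes was not tested.

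Within the A1/A2 libraries, Cx3cr1 wells were also set against Kit wells. Kit wells were few (3, 6, 6 and 4), and no label ties the Kit wells to A1 cells. Of 19 S genes tested edgeR called 0, where 4.32% of 7045 genes were called, 2.04% higher and 2.27% lower. At an unadjusted p under 0.05 there were 7 S genes, all higher in Cx3cr1 wells, and 5 G2/M genes, all lower. The share of all genes at that threshold is not given here, so these counts are not read against it. DESeq2 called 0 S genes. Of the S genes, the lowest p were those of Mcm2, with 2.06, 1.82, 1.73 and 1.65 transcripts per 10000 in Cx3cr1 wells against 0.913, 0.736, 1.22 and 0.946 in Kit wells (0.76 ± 0.24; adjusted p = 0.0746), and of Pcna (0.84 ± 0.27; 0.0766). Rrm1, Cdt1, Mcm6, Rrm2 and Mcm5 stood at 0.77, 0.72, 0.54, 0.48 and 0.58. With each well thinned to 5000 transcripts and classed anew, 7 of the 19 members still tested had the opposite sign. Among them were Mcm2 (-0.0044 ± 0.52), Cdt1 (-0.18 ± 0.63) and Rrm2 (-0.50 ± 0.36). Pcna, Mcm5 and Mcm6 stood at 0.88 ± 0.64, 1.47 ± 0.69 and 0.63 ± 0.63, and Rrm1 was not tested. Depth and the change of wells between classes cannot be told apart there. Of the G2/M genes Cenpe, a kinetochore motor, fell by 0.89 ± 0.23 (adjusted p = 0.0256), and this call was lost without any 1 of the 4 libraries (highest 0.148), while Pcna was called without library 3 (0.99; 0.0478). Of all genes edgeR called 144 higher and 160 lower, and DESeq2 67 and 118. 

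Markers of other cells differed widely among these Kit wells. Summed over 8 markers of granulocytes and monocytes, they held 20.7, 0.204, 9.62 and 5.06 transcripts per 10000 in A1/A2 libraries 1 to 4, against 2.46 to 3.41 in the Cx3cr1 wells. Only 2 of these 8 markers were found in the Kit wells of every library, and 5 in the Cx3cr1 wells of every library. For 8 erythroid markers the Kit wells of library 2 stood at 542 and those of the other libraries at 17.0 to 56.0, against 1.22 to 16.7 in the Cx3cr1 wells, and 4 of the 8 were found in every library in both classes. For 4 lymphoid markers the Kit wells of library 1 stood at 10.3 and the others at 0 to 0.163, against 0.206 to 0.554 in the Cx3cr1 wells, and Cd3e was at 0 throughout. Macrophage markers held 1.47 to 6.85 in Kit wells and 13.5 to 16.9 in Cx3cr1 wells. Cx3cr1, which set the classes, is among these markers, so part of this contrast follows from the rule. The part of these cells in the differences was not tested.

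Between Kit and Cdh5 wells of the EMP libraries edgeR called 0 of 19 S and 0 of 20 G2/M genes, where 6.64% of 6599 genes were called, 2.27% higher and 4.36% lower. At an unadjusted p under 0.05 there were 4 S genes, all higher in Kit wells, and 0 G2/M genes. These counts too stand without the share of all genes at that threshold. DESeq2 called 0 and 0. The lowest p were those of Rrm1, which averaged 1.55 ± 0.143 transcripts per 10000 in Kit wells and 0.880 ± 0.273 in Cdh5 wells (0.66 ± 0.29; adjusted p = 0.174), Cdt1 (0.66 ± 0.30; 0.198), Mcm2 (0.60 ± 0.27; 0.204) and Lig1 (0.64 ± 0.30; 0.210). The median was 0.46 for S genes, 0.17 for G2/M genes and 0.05 for all genes. With 3 to 9 Cdh5 wells a library, the standard error of a member was 0.23 to 0.47 for S genes on the log2 scale, and Mcm2 was called without EMP library 3 (1.09; adjusted p = 0.0368).

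Among single deep wells, S transcripts were fewer in the Apoa1-high class than in the Cx3cr1 and Kit classes. These wells also entered the class sums above, so the contrast is not independent of those sums. The 514 wells with at least 20000 transcripts were each thinned to 20000. The median well then held 59 S transcripts in the Cx3cr1 class (84 wells) and 27.5 in the Apoa1-high class (26 wells) of the A1/A2 libraries, and 55.5 in the Kit class and 35 in the Apoa1-high class of the EMP libraries (96 wells each). For G2/M genes the medians were 52.5 and 54 in the A1/A2 and 53.5 and 49.5 in the EMP libraries. The spread of S transcripts over wells was wide: the middle 50% of wells lay between 48.75 and 69 in the Cx3cr1 class and between 36 and 69.25 in the Kit class, against 23 to 36.5 and 29 to 40 in the Apoa1-high classes of the A1/A2 and EMP libraries. Wells of a library are not replicates, and no test was made.

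**Figure D5:**
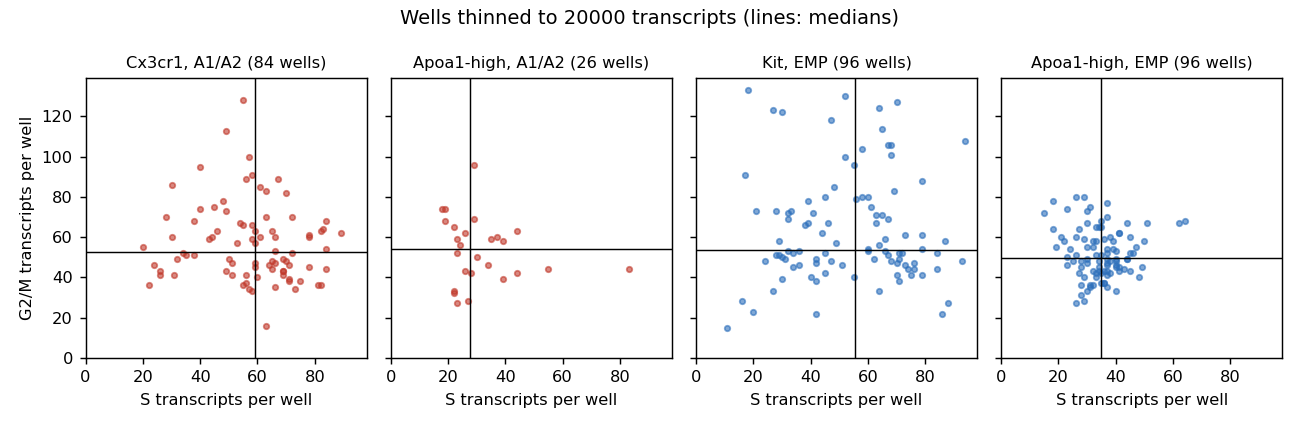
S transcripts (x axis) against G2/M transcripts (y axis) per well, for wells thinned to 20000 transcripts, in the Cx3cr1 and Apoa1-high classes of the A1/A2 libraries (red) and the Kit and Apoa1-high classes of the EMP libraries (blue); lines are medians. The S medians are 59 and 27.5 in red and 55.5 and 35 in blue, while the G2/M medians lie between 49.5 and 54.

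Over these wells most members went with their own list. The Pearson correlation of a gene with the sum of the other genes of its list was highest for Mcm5 (0.57), Mcm3 (0.56) and Mcm6 (0.54) among S genes, and for Ube2c (0.61), Plk1 (0.55) and Ccnb1 (0.50) among G2/M genes. These 514 wells share libraries and classes, so the values are a description. Ccne1 stood apart, with -0.01 against the other S genes and -0.14 against the G2/M genes, and Fen1 (0.15), Gins2 (0.18) and Ccne2 (0.21) were the next lowest of the S genes. Bub1 (0.12) and Birc5 (0.15), an inhibitor of apoptosis and passenger protein, were lowest of the G2/M genes. The S and G2/M sums of a well correlated by -0.10, -0.03, 0.22 and -0.10 in A1/A2 libraries 1 to 4 and by 0.37, 0.21, 0.06 and -0.02 in EMP libraries 1 to 4.

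Other genes of the pathway were counted from lists taken by function. Of 40 further replication genes, 14 rose and 1 fell in A1/A2 over EMP libraries, where 17.3% of all genes rose and 15.9% fell, with Mcm10 (0.56 ± 0.11), the clamp loader Rfc4 (1.10 ± 0.24) and the helicase Hells (0.44 ± 0.10) at the lowest p. Of 45 further mitotic genes 1 rose and 8 fell, among them Cenpa, the centromeric histone (-0.35 ± 0.09), and Pttg1, securin (-0.48 ± 0.12), while Incenp, of the passenger complex, rose (0.39 ± 0.10). Of the 19 tested genes of G1/S control 1 rose and 3 fell, and of 4 tested CDK inhibitors Cdkn1c fell (-0.59 ± 0.19; edgeR adjusted p = 0.0326). In Cx3cr1 over Apoa1-high wells, where 19.1% of all genes rose and 20.7% fell, 10 of 37 replication genes rose and 0 fell, 6 of 43 mitotic genes rose and 3 fell, and E2f1, a driver of S phase genes, rose by 1.51 ± 0.30. In Kit over Apoa1-high wells, where 26.4% of all genes rose and 26.6% fell, 20 of 39 replication genes rose and 1 fell. Of 43 mitotic genes 11 rose there, a share near that of all genes, and 5 fell.

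Of 7 listed CDK inhibitors, which hold back the cycle, 4 were tested. In Cx3cr1 over Apoa1-high wells 0 rose and 2 fell, where 39.8% of all genes were called, and in Kit over Apoa1-high wells 1 rose and 2 fell, where 53% were. Cdkn1c, which encodes the CDK inhibitor p57, averaged 1.82 ± 0.632 transcripts per 10000 in Cx3cr1 wells and 6.86 ± 1.49 in Apoa1-high wells of the A1/A2 libraries (-2.02 ± 0.39; edgeR adjusted p = 0.0154). In the EMP libraries it averaged 3.24 ± 0.481 in Kit wells and 6.01 ± 0.762 in Apoa1-high wells (-0.99 ± 0.12; adjusted p = 0.000135). Cdkn1a, which encodes p21, fell there by 1.18 ± 0.20 and Cdkn2d rose by 0.90 ± 0.25, and in the A1/A2 libraries Cdkn1b, which encodes p27, fell by 0.80 ± 0.30. Skp2, a subunit of a ubiquitin ligase that degrades p27 and so drives the cycle on, was counted among genes of G1/S control. It fell by 0.73 ± 0.17 in Cx3cr1 and by 0.76 ± 0.11 in Kit wells. In both comparisons the 4 CDK inhibitors and Skp2 rest on the same sums as the members.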

How the data were processed

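Single wells were read by mCEL-Seq2, per the labels' protocols, a method that tags each transcript with a molecular identifier. The tables the authors deposited give estimated counts, one for each gene in each well, in 8 libraries whose 192 well numbers are shared by design. The values in the deposited tables fit whole identifiers of 4096 possible ones after correction for collisions (tolerance 1e-06), and they were used unscaled. BWA 0.6.2-r126 and Seurat are named in the submitters' processing notes without a role. For the build, the annotation and reads shared by similar genes, nothing is stated: not given in the sources used here.

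Wells under 5000 transcripts were left out. For each library, and for each class of 3 wells or more within it, the estimated counts were added up, rounded to whole numbers and tested over all genes with edgeR 4.0.16 in R 4.3.3 (quasi-likelihood test, robust, TMM scaling, filter on low counts, Benjamini-Hochberg threshold 5%). The 4 comparisons within libraries had the library as a block and left out Kit, Cx3cr1, Cdh5 and Apoa1. Standard errors are the size of the log2 fold change over the root of F. Levels are transcripts per 10000, as mean ± SD over libraries. Intervals over libraries hold counting error and differences between libraries together, and they are wider for classes of few wells. Alternatives were DESeq2 1.42.0, no filter, a block on library number or none, each library left out, wells of at least 1000 transcripts, wells thinned to 5000, an Apoa1 limit from each library's own mean, overlapping classes, and no Apoa1-high wells. For the thinned fits the classes were set anew from the thinned counts. The fits were tested on simulated data. No doublet caller was run, since cells were sorted into wells, per the labels' protocols. Promoters came from RefSeq tables (GRCm38.p6), and python 3.11.15 with numpy 2.4.6, pandas 2.3.3, scipy 1.17.1 and matplotlib 3.10.9 was used.

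The members, the other gene lists, the motifs and the comparisons were chosen with earlier results of these data known. Any of the 40 members could be named, with fuller values for 16 of them picked by name and for the 4 per list with the lowest p in a comparison. Of the other lists, up to 3 called genes per list and comparison with the lowest p were named.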

Additional observations from a re-analysis of the deposited data

Results flagged for a closer look

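Among 104 sets of 4 libraries, 5 held a library far from its group by the gap to its nearest neighbour over the range of the group. Chance flags about 1 in 20 such sets. Hmmr, over all kept wells, was lowest in A1/A2 library 3 at 1.09 transcripts per 10000, against 1.32 to 1.36 in the other A1/A2 libraries. Ccne2 was highest in EMP library 4 at 0.537, against 0.408 to 0.415 in the other EMP libraries. The sum of the 20 G2/M genes in Kit wells was lowest in A1/A2 library 1, which has 3 such wells, at 23.7, against 32.9 to 33.9. The same sum in Cdh5 wells was highest in EMP library 2, also with 3 such wells, at 66.6, against 22.6 to 29.6. The sum of the 20 S genes in wells with several of the class genes was lowest in A1/A2 library 1 at 24.4, against 27.0 to 27.5.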

How the results depend on the processing

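Of the values of single genes under all alternatives, 2843 kept their direction and side of the threshold, 134 lost a call, 67 gained one, and 1 called value reversed: Mcm3 in A1/A2 over EMP libraries, at -0.038 with wells thinned to 5000. A further 256, called under neither setting, had the opposite sign. The largest share came with thinning, with 44 of its 147 values of the opposite sign, Mcm3 included, against 120 of 1579 with 1 library left out and 32 of 276 without the filter. Without Apoa1-high wells, which was fitted only for A1/A2 over EMP libraries, 5 of 40 values had the opposite sign. Few wells per class, and the 3 to 6 Kit wells of the A1/A2 libraries above all, limit the comparisons within libraries. Thinning also left fewer genes to test, and in the class comparisons it set the classes anew, so wells could change class. Beyond that the cause of each change below was not tested.

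Called S genes, G2/M genes and all genes are given in this order. They are numbers of calls and not shares, and thinning left fewer genes to test. A1/A2 over EMP libraries gave 6, 4 and 3685, with 11 S genes, 5 G2/M genes and 4722 genes under a replicate block, 2, 1 and 779 when thinned, and 5 to 8, 1 to 5 and 2575 to 4123 with 1 library left out. The block thus called 11 of 20 S genes and 4722 of 11087 genes, a larger share of the S genes. Apoa1-high wells gave 0, 0 and 212. There was 1 S gene without the filter, with the replicate block and with wells of at least 1000 transcripts, all genes came to 362 without the filter, 428 with those wells and 47 when thinned, and leaving out 1 library gave 0 to 2, 0 to 1 and 74 to 357. Cx3cr1 over Kit wells across the sorts gave 4, 4 and 1913, with 2 S genes by DESeq2 and with wells of at least 1000 transcripts, 7 with overlapping classes, 0, 0 and 188 when thinned, and 0 to 5, 3 to 5 and 1425 to 2400 with 1 library left out.

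Within the A1/A2 libraries, Cx3cr1 over Kit wells gave 0, 1 and 304. S genes came to 4 without the filter, 1 with no replicate block and 2 with overlapping classes. G2/M genes came to 2 with no replicate block and to 0 by DESeq2, without the filter, with wells of at least 1000 transcripts, when thinned, with each library's own Apoa1 limit and with overlapping classes. All genes came to 185 by DESeq2, 553 without the filter, 0 when thinned and 486 with overlapping classes, and leaving out 1 library gave 0 to 1, 0 and 82 to 408. Cx3cr1 over Apoa1-high wells gave 13, 2 and 3274, and 0, 0 and 363 when thinned. G2/M genes came to 1 by DESeq2 and with no replicate block, 4 with wells of at least 1000 transcripts, 6 with each library's own Apoa1 limit and 4 with overlapping classes, and leaving out 1 library gave 8 to 14, 1 to 4 and 2178 to 3410.

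Within the EMP libraries, Kit over Cdh5 wells gave 0, 0 and 438, with 1 S gene for wells of at least 1000 transcripts, 83 genes in all when thinned, and 0 to 1, 0 and 226 to 428 with 1 library left out. Kit over Apoa1-high wells gave 16, 6 and 4573, with 8, 2 and 992 when thinned, 3 G2/M genes and 3048 genes by DESeq2, and 12 to 15, 4 to 6 and 3771 to 4377 with 1 library left out. By the labels, libraries of the 2 sorts share a number, and whether it pairs them is not stated. The deviations of same-numbered libraries from their group means correlated over 6943 genes by 0.30, 0.60, -0.01 and 0.27, and A1/A2 libraries 1, 2 and 4, but not 3, correlated best with their own number.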
